A study of Mus musculus with 8 samples.

Results

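The secretin family of G protein-coupled receptors (GPCRs) and the receptor activity-modifying proteins (RAMPs) that partner some of them were examined in isolated neonatal cardiomyocytes (NCMs). The 10 members, Gipr, Glp1r, Gcgr, Vipr2, Crhr2, Pth1r, Calcrl, Ramp1, Ramp2 and Ramp3, were selected on their gene symbols among the 27179 genes of the count table, with earlier results of these libraries known. All 10 were found. RNA from the NCMs of 8 male C57Bl/6J hearts, 1 heart per library, was sequenced at postnatal day 0. The dams had breathed filtered air (FA, replicates 2, 3, 4 and 6) or diesel exhaust (DE, replicates 1, 3, 5 and 7) from E0.5 to E17.5, after mating in filtered air in both groups. The methods give n = 3 per group without naming the animals, so all 4 libraries of each group were used. The labels do not say whether pups of a group were littermates, so the p-values measure the spread between these hearts.

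Secretin-family receptors bind peptide hormones with a large extracellular domain and the helices of the receptor core. Most of them couple to Gs and raise cyclic AMP (cAMP), the second messenger that also carries beta-adrenergic signals in cardiomyocytes. The receptor encoded by Calcrl needs a RAMP to reach the cell surface. With RAMP1 it binds calcitonin gene-related peptide, and with RAMP2 or RAMP3 it binds adrenomedullin, a peptide required for the vessels and heart of the embryo. Gipr encodes the receptor of the incretin glucose-dependent insulinotropic polypeptide.

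The first 120 coding bases of the genes that the comparisons turn on are printed 5′ to 3′ from the GENCODE transcripts of GRCm38, with the start codon in capitals. They are shown so that the receptor with the largest difference, the receptor Calcrl and the 3 paralogous partners can be compared by eye.
Gipr: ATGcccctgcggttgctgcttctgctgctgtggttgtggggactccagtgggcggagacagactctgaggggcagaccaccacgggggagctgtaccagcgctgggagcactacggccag
Calcrl: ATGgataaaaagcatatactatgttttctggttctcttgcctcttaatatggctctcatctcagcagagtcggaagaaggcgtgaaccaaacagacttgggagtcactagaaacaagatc
Ramp1: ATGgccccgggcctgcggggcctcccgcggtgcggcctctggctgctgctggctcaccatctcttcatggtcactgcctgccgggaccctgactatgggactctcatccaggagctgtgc
Ramp2: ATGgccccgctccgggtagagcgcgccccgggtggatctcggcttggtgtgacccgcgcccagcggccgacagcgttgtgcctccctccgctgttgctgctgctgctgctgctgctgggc
Ramp3: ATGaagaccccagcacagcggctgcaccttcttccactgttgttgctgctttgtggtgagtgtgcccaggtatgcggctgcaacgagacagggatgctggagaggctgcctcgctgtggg
The 3 RAMP transcripts shared no run longer than 13 bases, and the open reading frames held 148, 189 and 147 codons in Ramp1, Ramp2 and Ramp3. Gipr and Calcrl held 460 and 463 codons. Over all 45 pairs of members the longest shared run was 49 bases, between Glp1r and Vipr2, and the next was 19 bases, between Gcgr and Vipr2. On GRCm38.p6, Gipr lay at chr7:19156063-19170248 on the minus strand, Calcrl at chr2:84330626-84425405 on the minus strand, Ramp1 at chr1:91179822-91225196 on the plus strand, Ramp2 at chr11:101246334-101248250 on the plus strand and Ramp3 at chr11:6658506-6677478 on the plus strand. Crhr2 (chr6:55090048-55133016) and Pth1r (chr9:110722085-110747145) lay on the minus strand, and Vipr2 (chr12:116077420-116148637), Gcgr (chr11:120529185-120538989) and Glp1r (chr17:30901867-30936510) on the plus strand. The start codons of Gipr and Ramp2 began at positions 19165024 of chromosome 7 and 101246452 of chromosome 11.

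Library totals ran from 17943024 to 39839737 counts, and the members drew between 49 (Glp1r) and 10141 (Ramp2) counts over the 8 libraries. Levels are given as CPM, the counts scaled to the library total with TMM factors. Differences between DE and FA are log2 fold changes of a quasi-likelihood fit in edgeR, adjusted by Benjamini-Hochberg over 14966 genes. Calls required both an adjusted p no higher than 0.05 and a difference of at least 25%. By this rule 5.80% of all tested genes were called, 3.58% higher and 2.22% lower in DE. Of the 9 members tested, 2 were called, Gipr and Ramp2, both higher in DE. For these 2 members every DE library lay above every FA library, and separation of the groups in either direction held for 14.7% of all tested genes. The median log2 fold change was 0.14 over the tested members and 0.00 over all tested genes. Glp1r did not pass the filter on low counts. Since the members were chosen with these results known, the counts and p-values describe them and are not independent evidence.

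**Figure D1:**
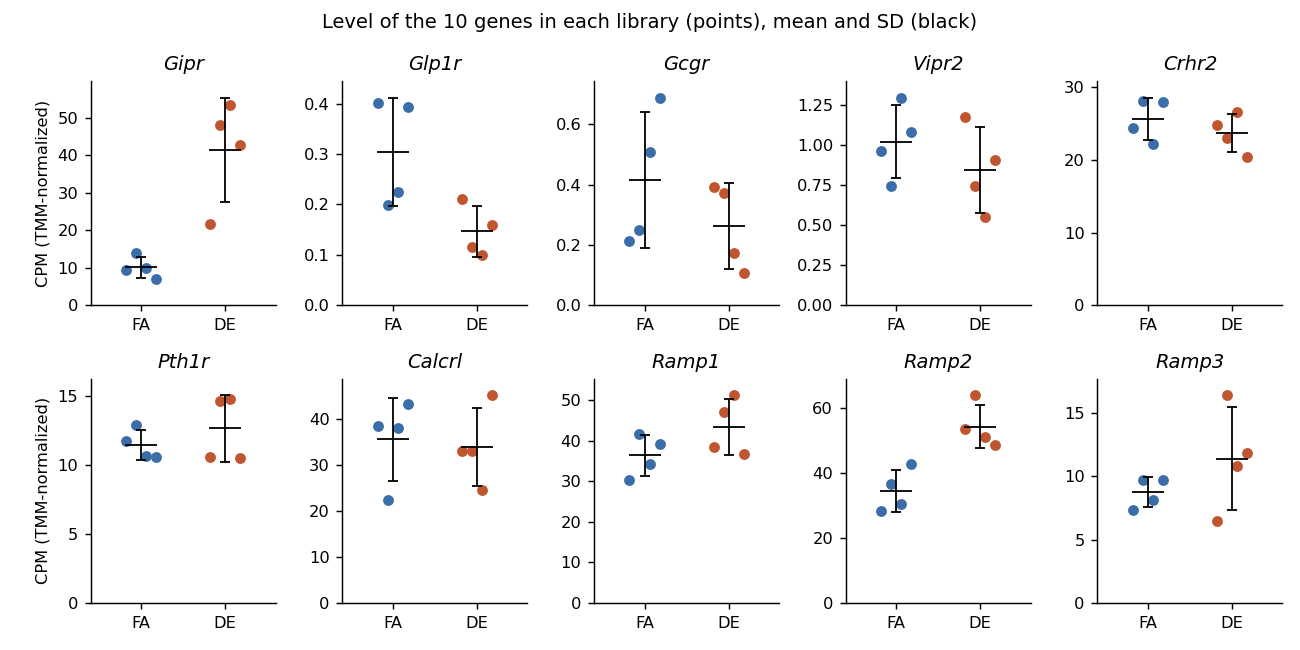
Level of each of the 10 genes in CPM (vertical axes from 0, scaled separately) in the 4 FA (blue) and 4 DE (orange) libraries, with the mean and SD in black. Every DE library exceeded every FA library for Gipr and Ramp2, and the groups overlapped for the other 8 genes.

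Among the receptors, Gipr differed most. Its level was 9.38, 13.9, 9.98 and 6.93 CPM in FA replicates 2, 3, 4 and 6, and 21.8, 48.0, 53.4 and 42.7 CPM in DE replicates 1, 3, 5 and 7. DE replicate 1 was the lowest of its group and still lay above every FA library. The mean rose from 10.1 ± 2.91 to 41.5 ± 13.8 CPM (SD, n = 4 each). On the log2 scale the difference was 2.05 with a standard error of 0.27 (adjusted p = 0.00273, edgeR). This 4.13-fold difference ranked 4 by log2 fold change among all 14966 tested genes. It rested on 949 counts in FA and 5340 in DE. The adjacent genes on chromosome 7 were not called. Snrpd2, a spliceosome component, lay 3329 bases away with a log2 fold change of 0.31 (adjusted p = 0.238, edgeR). Eml2, a microtubule-binding protein, lay 6173 bases away on the other side with -0.03 (adjusted p = 0.890, edgeR).

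The other receptors of the incretin and glucagon group were near the limit of detection. Glp1r, the receptor of glucagon-like peptide 1, had 15, 4, 4 and 8 counts in FA replicates 2, 3, 4 and 6, and 7, 4, 4 and 3 in DE replicates 1, 3, 5 and 7. Gcgr, the glucagon receptor, had 8, 5, 9 and 14 counts in FA and 13, 13, 7 and 2 in DE, in the same order of replicates. Both genes thus had between 2 and 15 counts per library, and the groups overlapped. Gcgr averaged 0.415 ± 0.225 CPM in FA, and DE averaged 0.262 ± 0.143 CPM (SD, n = 4 each). The fitted difference of -0.51 on the log2 scale had an approximate 95% interval, from the standard error, of -1.46 to 0.44, and the difference was -0.15 without FA replicate 6.

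Crhr2, the receptor of the urocortins and the main corticotropin-releasing hormone receptor of the heart, was clearly detected in every library. Its values were 24.4, 28.2, 22.2 and 28.0 CPM in FA replicates 2, 3, 4 and 6, and 24.8, 23.1, 26.6 and 20.4 CPM in DE replicates 1, 3, 5 and 7. The groups overlapped over most of their range. The log2 fold change was -0.11 (95% interval -0.34 to 0.12, adjusted p = 0.575, edgeR).

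Pth1r, the receptor of parathyroid hormone and its related protein, gave 11.8, 12.9, 10.7 and 10.6 CPM in FA replicates 2, 3, 4 and 6. The DE replicates 1, 3, 5 and 7 gave 10.6, 14.7, 14.8 and 10.5 CPM. Replicates 3 and 5, whose sample names carry the number 12 where the other 6 libraries carry 11, were the 2 high ones. The log2 fold change was 0.14 (95% interval -0.14 to 0.43, adjusted p = 0.559, edgeR). In the GENCODE annotation Pth1r overlaps Myl3, a myosin light chain at 3386 CPM in FA, on the opposite strand. The strand setting of the counting was not given in the sources used here.

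Vipr2, a receptor of vasoactive intestinal peptide and of PACAP, was low. Its counts were 36, 15, 23 and 22 in FA replicates 2, 3, 4 and 6, and 39, 26, 22 and 17 in DE replicates 1, 3, 5 and 7. The groups overlapped, with means of 1.02 ± 0.230 CPM (FA) and 0.845 ± 0.267 CPM (DE; SD, n = 4 each) and a log2 fold change of -0.28 (95% interval -0.83 to 0.27).

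Calcrl, the receptor shared by the RAMPs, had a log2 fold change close to 0. It was measured at 38.6, 22.5, 38.1 and 43.4 CPM in FA replicates 2, 3, 4 and 6, and at 33.1, 33.2, 24.6 and 45.2 CPM in DE replicates 1, 3, 5 and 7. The lowest and the highest values of all belonged to FA replicate 3 and DE replicate 7, and the groups overlapped almost fully. The log2 fold change was -0.07 (95% interval -0.49 to 0.34, adjusted p = 0.858, edgeR).

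Ramp2, the partner that gives Calcrl its affinity for adrenomedullin and that endothelial cells express strongly, was measured at 28.3, 36.6, 30.3 and 42.6 CPM in FA replicates 2, 3, 4 and 6. In DE replicates 1, 3, 5 and 7 it reached 53.3, 63.8, 50.9 and 48.6 CPM. The highest FA library, replicate 6, and the lowest DE library, replicate 7, stood 42.6 against 48.6 CPM. The mean rose from 34.4 ± 6.48 to 54.2 ± 6.70 CPM (SD, n = 4 each), which is 1.58-fold (log2 0.66, standard error 0.14, adjusted p = 0.0249, edgeR). The call was close to its threshold. Leaving out FA replicate 2, 3 or 4 or DE replicate 3 gave adjusted p values of 0.0840, 0.0502, 0.0916 and 0.0800. Vps25, an endosomal sorting protein whose GENCODE annotation overlaps Ramp2 on the same strand, had a log2 fold change of -0.08 (adjusted p = 0.704, edgeR).

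Ramp1, the partner for calcitonin gene-related peptide, was measured at 30.4, 41.7, 34.3 and 39.3 CPM in FA replicates 2, 3, 4 and 6. DE replicates 1, 3, 5 and 7 gave 38.6, 47.1, 51.2 and 36.6 CPM. Only DE replicates 3 and 5 exceeded every FA library. The log2 fold change was 0.26 (95% interval -0.01 to 0.52, adjusted p = 0.263, edgeR).

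Ramp3, the other adrenomedullin partner, was measured at 7.35, 9.71, 8.12 and 9.68 CPM in FA replicates 2, 3, 4 and 6, and at 6.47, 16.4, 10.8 and 11.8 CPM in DE replicates 1, 3, 5 and 7. The lowest library of all was DE replicate 1, and the other 3 DE libraries exceeded every FA library. The log2 fold change was 0.39 (95% interval -0.07 to 0.85, adjusted p = 0.321, edgeR), 0.15 without DE replicate 3 and 0.58 without DE replicate 1 (adjusted p = 0.0629, edgeR).

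**Figure D2:**
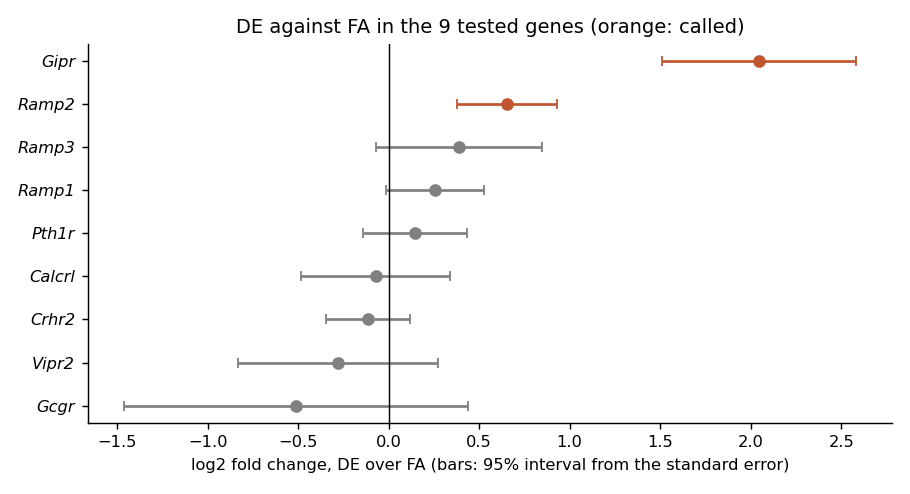
Log2 fold change of DE over FA (horizontal axis) for the 9 tested genes, with approximate 95% intervals from the standard error and called genes in orange. The intervals of Gipr (1.51 to 2.58) and Ramp2 (0.38 to 0.93) lay above 0, and the intervals of the other 7 genes included 0.

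Levels of different genes were compared as CPM per kilobase of the longest transcript that carries a RefSeq accession. In FA, Ramp2 led with 29.2 CPM per kilobase (24.0 to 36.2 over libraries), followed by Ramp1 with 15.7 (13.1 to 17.9) and Crhr2 with 9.53 (at least 8.25, with the highest library below all Ramp1 libraries). The libraries of these 3 genes did not overlap. Calcrl with 7.30 (4.61 to 8.88), Ramp3 with 7.07 (5.96 to 7.88) and Pth1r with 4.98 (4.60 to 5.59) came next, and the range of Calcrl overlapped those of Crhr2, Ramp3 and Pth1r. Gipr stood at 3.52 (2.43 to 4.88), overlapping Pth1r and Calcrl. Vipr2 (0.302), Gcgr (0.212) and Glp1r (0.0524) closed the order, with overlap between Vipr2 and Gcgr. The order of the higher genes depended on the length used. Per kilobase of the union of all annotated exons, a length added after the data were seen, Ramp1 led in FA with 12.0 ± 1.68 CPM per kilobase over Ramp2 with 10.4 ± 1.96, and Calcrl with 7.30 ± 1.86 stood above Crhr2 with 5.02 ± 0.566 (SD, n = 4 each). Gipr, with 2.89 ± 0.835, was again below these genes, Ramp3 and Pth1r.

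In DE the order of level per kilobase differed mainly in the place of Gipr. Gipr, the lowest of the 7 clearly detected members in FA, reached 14.5 CPM per kilobase (7.62 to 18.7) and overlapped Ramp1, whose lowest library was at 15.8. By exon union it rose from 2.89 to 11.9 CPM per kilobase. Ramp2 had the highest mean in DE by both lengths, with 46.0 CPM per kilobase of transcript (41.3 to 54.1) and 16.4 by exon union. By exon union Ramp1 had a mean of 14.4. In DE replicate 5 it held 42.2% of the RAMP level by that length, against 38.4% for Ramp2. By transcript length, Ramp3 (9.22), Crhr2 (8.80), Calcrl (6.97) and Pth1r (5.49) followed, each overlapping the next. Of the summed level per kilobase of the 7 receptors, Gipr made up 12.7%, 18.8%, 14.1% and 8.98% in FA replicates 2, 3, 4 and 6. In DE replicates 1, 3, 5 and 7 it made up 26.5%, 43.2%, 46.4% and 40.7%. The share of Crhr2, whose own level overlapped between groups, was 36.8% ± 3.22 in FA and 24.8% ± 5.06 in DE (SD, n = 4 each).

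Of the summed RAMP level per kilobase, Ramp2 made up 55.8%, 54.6%, 54.7% and 59.4% in FA replicates 2, 3, 4 and 6, and 67.5%, 61.8%, 58.4% and 62.0% in DE replicates 1, 3, 5 and 7. DE replicate 5 lay below FA replicate 6, so the shares overlapped. By exon union the share of Ramp2 was 36.1% ± 2.12 in FA, below the 41.9% ± 1.72 of Ramp1, and 42.3% ± 4.10 in DE (SD, n = 4 each), with overlap as well. The ratio of Ramp2 to Calcrl per kilobase was 3.04, 6.73, 3.30 and 4.07 in FA replicates 2, 3, 4 and 6. It was 6.69, 7.96, 8.57 and 4.46 in DE replicates 1, 3, 5 and 7. FA replicate 3, where Calcrl was lowest, lay within the DE values, so the groups overlapped around means of 4.29 ± 1.69 and 6.92 ± 1.82, or 1.53 ± 0.602 and 2.47 ± 0.650 by exon union (SD, n = 4 each).

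**Figure D3:**
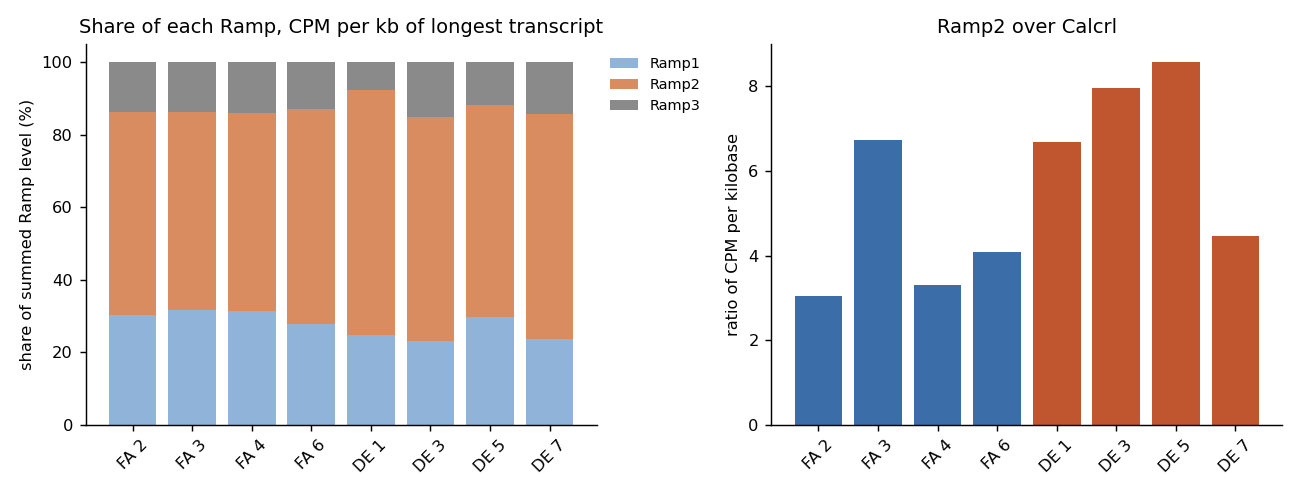
Left, share of each RAMP in the summed RAMP level per kilobase of the longest transcript with a RefSeq accession (%, stacked bars) in each library. Right, ratio of Ramp2 to Calcrl by the same length in FA (blue) and DE (orange). With this length Ramp2 held between 54.6% and 67.5% of the RAMP level, and the ratio in FA replicate 3 (6.73) lay within the DE range.

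Within groups, the members did not move as a single block. After the mean of each group was subtracted from log2 CPM, Calcrl correlated negatively with Pth1r (r = -0.71), Ramp1 (-0.68), Crhr2 (-0.65) and Gipr (-0.52). Ramp1 correlated positively with Pth1r (r = 0.73), Crhr2 (0.71) and Ramp2 (0.64), and Gipr with Pth1r (0.74) and Ramp3 (0.66). Gipr and Ramp2, the called members, gave -0.10. These are descriptions over the same 8 libraries, whose points share depth and base composition. Calcrl also had the longest transcript of the tested members (4882 bases) and the lowest GC content (37.8%, against 49.8% to 60.4% in the others). Among the 10616 genes compared, those with a mean level of 5 CPM or more, the ones most like Gipr in this measure were Mettl9 (r = 0.98), Tmcc1 (0.98) and C430049B03Rik (0.98). For Ramp2 they were B4galt4 (0.98), Tcn2 (0.97) and Tm9sf1 (0.97), and for Calcrl Gng12 (0.99), Rab8b (0.99) and Rundc1 (0.98). Ramp1 was most like Sirt3, Mrps15 and Bloc1s5 (0.99 each). The highest values were 0.98 for Ramp3 (Smap2), 0.99 for Crhr2 (Bop1) and 0.99 for Pth1r (Polg2). All these genes were picked as the highest of 10616 correlations over 8 libraries. Such a choice can yield values near 1 among unrelated genes, and a link to the members was not tested.

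Transcript length moved with the comparison. The median log2 fold change fell steadily over 10 bins of tested genes, from 0.15 in the bin of shortest transcripts (62 to 1249 bases) to -0.20 in the bin of longest ones. Ramp2 (1178 bases) and Ramp3 (1233 bases) belonged to the shortest bin, Gipr (2856 bases) to bin 5 and Calcrl to bin 8. With offsets that removed the trend of each library with length and GC content, Gipr gave a log2 fold change of 1.98 (adjusted p = 0.00103, edgeR). Ramp2 gave 0.41 (adjusted p = 0.0346, edgeR), a smaller difference that was still called, and Ramp3 gave 0.18.

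The sample-name number could be separated from exposure only in DE, since all 4 FA libraries carry 11. With the 4 FA libraries and DE replicates 1 and 7 alone, Gipr had a log2 fold change of 1.67 (adjusted p = 0.0144, edgeR) and stayed called. Ramp2 had 0.56 (adjusted p = 0.107, edgeR) and was no longer called. Ramp1 gave 0.044 and Ramp3 0.049 on the log2 scale, against 0.26 and 0.39 with all 8 libraries. Between the DE libraries numbered 12 and 11, the log2 difference was 0.67 for Gipr (adjusted p = 0.202, edgeR) and 0.17 for Ramp2 (adjusted p = 0.603, edgeR). Over the whole table, 309 of 14966 genes differed between the DE libraries of the 2 numbers at the same adjusted p. What the number stands for was not given in the sources used here.

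**Figure D4:**
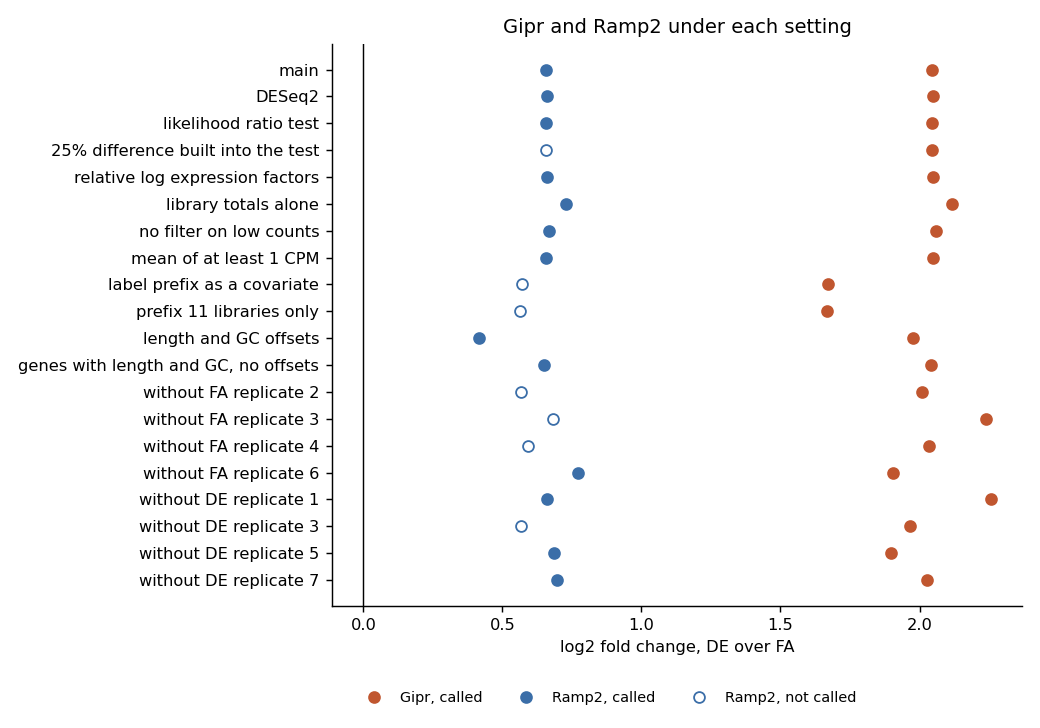
Log2 fold change of DE over FA (horizontal axis) of Gipr (orange) and Ramp2 (blue) in the main comparison and 19 alternatives (vertical axis), filled where the gene was called and open where it was not. Gipr stayed between 1.67 and 2.26 and was called throughout, whereas Ramp2 ran from 0.41 to 0.77 and lost its call in 7 alternatives.

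The hearts had been trimmed of atria and vessels, and fibroblasts had been left to attach to a plate in the presence of Ara-C, which blocks dividing cells, before the suspended NCMs were collected. Markers of the remaining cell types were read beside the members. The labelled cell type was borne out by its markers, as the 10 ventricular cardiomyocyte genes summed to 65257 to 71833 CPM in FA and 50427 to 58869 CPM in DE. Of these, 2 were called lower in DE, Myh6 (the alpha myosin heavy chain, log2 -0.67) and Pln (phospholamban, log2 -0.38). Myh6 weighed most in the sums, with means of 23287 CPM in FA and 14613 CPM in DE. All 10 markers had a negative log2 fold change, from -0.80 to -0.05 with a median of -0.18. Of them, 4 had an unadjusted p under 0.05, and between 1 and 4 were called over the 19 alternatives. Only 1 was called without FA replicate 2, 4 or 6 or DE replicate 3 or 5. In bulk RNA, fewer cells of a type and less RNA per cell cannot be told apart.

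Endothelial markers, which mark cells that express Ramp2 and Calcrl, summed to 1450 to 1879 CPM in FA and 1611 to 2350 CPM in DE. Of 12 tested, 1 was called higher, the guidance receptor Robo4 (log2 0.63, adjusted p = 0.0454, edgeR), 10 had a positive log2 fold change, with a median of 0.36, and 7 were higher at an unadjusted p under 0.05. The 12 log2 fold changes ran from -0.09 (Cldn5) to 0.63 (Robo4), with Cdh5 (0.01), Kdr (0.03) and Tek (-0.00) near 0 and Egfl7 (0.60), Emcn (0.51), Esam (0.50) and Vwf (0.49) at the upper end. Those named beside Robo4 were chosen after their values were seen. The count of called endothelial markers ran from 0 to 4 over the 19 alternatives, with 4 by DESeq2 and 0 in 8 alternatives, among them those without FA replicate 2, 3 or 4 or DE replicate 3 or 7. Per 1000 CPM of summed endothelial markers, Ramp2 gave 18.7, 25.2, 18.6 and 22.7 CPM in FA replicates 2, 3, 4 and 6, and 29.9, 27.1, 31.6 and 25.5 CPM in DE replicates 1, 3, 5 and 7. The groups did not overlap in this ratio, though FA replicate 3 and DE replicate 7 were nearly level. The sum weights markers by level, so Cdh5 (257 CPM in FA) counts more than Robo4 (33.5 CPM in FA). The ratio thus depends on that weighting, and other weightings were not tested. Calcrl gave 21.9 ± 4.37 and 17.9 ± 4.31 (SD, n = 4 each) and overlapped. Among 5 lymphatic endothelial markers, Lyve1, a hyaluronan receptor, was called higher (log2 0.77) and Prox1, a transcription factor also made by cardiomyocytes, was called lower (log2 -0.73). Neither was called without FA replicate 2, FA replicate 4 or DE replicate 3.

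Of the marker lists, fibroblast genes had the highest median log2 fold change, 0.64. They summed to 2065 to 3555 CPM in FA and 3758 to 6316 CPM in DE, without overlap, and 4 of 11 were called higher, the collagen chain Col1a1 (log2 0.95), the matrix proteins Dcn (0.56) and Dpt (0.84) and the surface protein Thy1 (0.54). All 11 had a positive log2 fold change, and 9 were higher at an unadjusted p under 0.05. Over the 19 alternatives between 1 and 9 were called, with 9 by DESeq2 and 1 without FA replicate 2, 3 or 4 or DE replicate 3. The share of all tested genes with an unadjusted p under 0.05 is not given here. Counts at that cut, in this and the other lists, therefore have no background beside them. Both the fibroblast sum and Gipr were higher in every DE library than in every FA library. Within DE, the highest fibroblast sum belonged to replicate 1, in which Gipr was lowest. Leukocyte markers, of which Itgam was called higher, summed to 12.9 to 19.2 CPM in FA and 16.4 to 27.4 CPM in DE. No leukocyte marker was called in 12 of the 19 alternatives, among them those that left out any single library other than DE replicate 1. Erythroid markers, of which Slc4a1 was called higher, ran from 759 to 1880 CPM in FA and 1208 to 2021 CPM in DE, and none was called in 7 alternatives, among them those without FA replicate 2, 4 or 6 or DE replicate 1 or 3. None of the tested smooth muscle and pericyte, epicardial, atrial, neural or hepatocyte markers passed the quasi-likelihood test of edgeR, each list had 1 or 2 genes at an unadjusted p under 0.05, and at most 1 gene of a list was called under any alternative. Adipocytes are a known site of Gipr expression. Of 7 adipocyte markers, Adipoq, Plin1, Cfd, Lep and Retn had between 1 and 13 counts over all 8 libraries. Ucp1, the uncoupling protein of brown fat, had 199 counts and gave 0.618 ± 0.168 CPM in FA and 1.02 ± 0.731 in DE (SD, n = 4 each), with a log2 fold change of 0.73 (adjusted p = 0.354, edgeR). Cidea, a lipid droplet protein, was called lower (log2 -0.92), and was called lower under all 19 alternatives (log2 -1.12 to -0.84). The 7 adipocyte markers summed to 14.5 to 19.7 CPM in FA libraries, above the 8.50 to 11.1 CPM of DE libraries. Most of this sum was Cidea, with 2632 counts, so the lower sum in DE followed that gene. Besides Ucp1, the scarce Adipoq, Cfd and Plin1 had higher means in DE, and the equally scarce Lep and Retn had lower ones. Whether the Cidea RNA came from adipocytes was not tested, so the sum is not a measure of adipocyte content. The part of fibroblasts, endothelial cells and blood cells in the differences of Gipr and Ramp2 was not tested.

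Peptide ligands of the family were scarce. Of 18 ligand genes, 4 passed the filter on low counts and none was called in edgeR's quasi-likelihood test, with 0 at an unadjusted p under 0.05 and at most 1 called under any alternative. Adm, adrenomedullin, had the highest level, 5.86 ± 0.749 CPM in FA, and a log2 fold change of 0.31 (adjusted p = 0.236, edgeR). Crh (0.41) and Pthlh, a ligand of Pth1r (0.62), also had positive log2 fold changes that did not pass. The summed level of all 18 ran from 8.27 to 9.99 CPM in FA and from 11.5 to 14.1 CPM in DE, without overlap. Most of this sum was Adm, which averaged 5.86 CPM in FA and 7.24 CPM in DE and was not called. Gip, the ligand of Gipr, had 2 counts in all 8 libraries together and was singled out after its value was seen. Of 8 further receptors of the family, 2 were tested and neither was called under any setting or had an unadjusted p under 0.05, Adcyap1r1, the PACAP receptor (log2 0.36, adjusted p = 0.285, edgeR), and Calcr, the calcitonin receptor (log2 0.55, adjusted p = 0.289, edgeR).

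Of 62 tested genes that act on the peptides or downstream of the receptors, 2 were called (3.23%, against 5.80% of all tested genes). Of 9 tested genes for ligand processing, binding and decoy receptors, 0 were called under edgeR's quasi-likelihood test or any alternative, and 0 had an unadjusted p under 0.05. Pam, the enzyme that amidates peptides such as adrenomedullin, gave 1506 ± 119 CPM in FA and a log2 fold change of -0.17. Of 7 G protein alpha subunits, 0 were called under any setting, with 1 at an unadjusted p under 0.05. Gnas, which encodes Gs alpha, gave 0.22 (adjusted p = 0.209, edgeR). Of 16 tested adenylate cyclases, protein kinase A subunits and Epac genes, 0 were called in edgeR's quasi-likelihood test, with 5 higher and 1 lower at an unadjusted p under 0.05, and at most 2 were called under any alternative. Adcy5 and Adcy6, the main cyclases of cardiomyocytes, gave -0.10 and -0.15. Of 12 genes for desensitization and trafficking, Snx27, a sorting nexin that recycles GPCRs, was called lower (log2 -0.40, adjusted p = 0.0442, edgeR). That list had 0 called genes in 11 of the 19 alternatives, among them those without FA replicate 2, 3 or 4 or DE replicate 1, 3 or 5, and 3 by DESeq2. Of 18 cAMP-CREB response genes, Per1, which is also a clock and glucocorticoid-response gene, was called higher (log2 0.84, adjusted p = 0.0103, edgeR), and 10 of the 18 had a negative log2 fold change. Over the 19 alternatives between 0 and 2 genes of this list were called, with 0 when the test itself required a 25% difference and 2 by DESeq2, by the likelihood ratio test, with the length and GC offsets and without FA replicate 3. The median over these 18 genes was -0.02, against 0.00 over all tested genes.

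**Figure D5:**
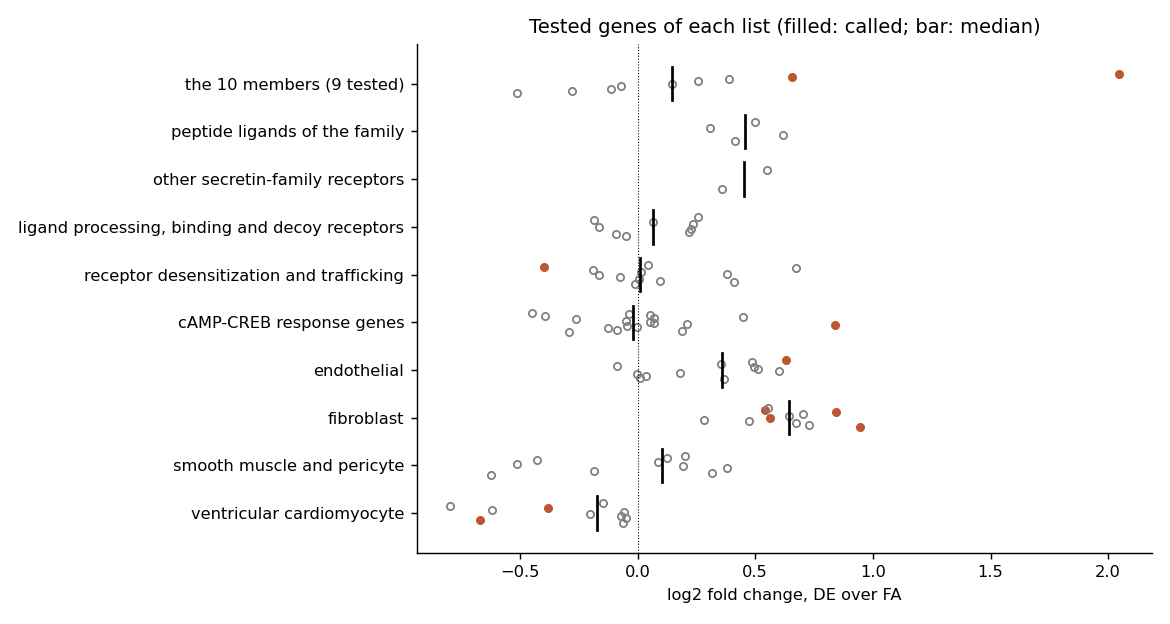
Log2 fold change of DE over FA (horizontal axis) of every tested gene in the members, 5 pathway lists and 4 marker lists (vertical axis), filled where called, with the median as a bar. Gipr at 2.05 lay beyond every gene of the other lists drawn, among which the fibroblast list had the highest median, 0.64.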

How the data were processed

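NCM RNA from 8 male neonatal hearts, 4 FA and 4 DE, was measured by stranded poly-A RNA-seq. The authors aligned reads to mm10 with Tophat, marked duplicates without removing them, and deposited raw counts per Entrez gene from featureCounts. How strand and overlapping genes were treated is not given in the sources used here. Retained duplicates can make counting precision look better than it is, to an extent that was not measured.

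Libraries were grouped by their labels. Genes passing edgeR's filterByExpr (minimum count 10) were normalized by TMM. DE was compared with FA by the functions glmQLFit and glmQLFTest of edgeR 4.0.16 (R 4.3.3) without covariates, and p-values were adjusted by Benjamini-Hochberg. The biological coefficient of variation was 15.9%. No 2 libraries of a group agreed within sampling noise (closest pair, chi-square 5.06 per gene).

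The members and lists were chosen with earlier results of these data known. The lists cover other receptors of the family, ligands, ligand processing, G proteins, cyclases and kinases, desensitization, cAMP-CREB response genes and markers of 12 cell types. Named genes were the members, the called genes of each list or otherwise up to 4 with the highest level, and for each member with a mean of at least 1 CPM the 3 genes most like it within groups. Gip, Ucp1 and the other uncalled adipocyte and endothelial markers, Snrpd2, Eml2, Vps25 and Myl3 were named outside this rule, after their values were seen.

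Other settings tried were DESeq2 1.42.0, the edgeR likelihood ratio test, the 25% difference built into the test, relative log expression factors, library totals alone, no filter, a mean of at least 1 CPM, the sample-name number as a covariate, the libraries numbered 11 only, and each library left out. Offsets for length and GC content of transcripts (spline terms of 5 degrees of freedom, properties known for 92.55% of tested genes), and the same genes without offsets, were added after the data were seen, as was the exon union for levels per kilobase. On simulated data with folds of 2 or 3 in 200 genes, the quasi-likelihood test recovered 194, with 11 false calls among 14956 genes. The changed genes were all well counted, so the recovery does not apply to Gcgr or Vipr2. Their folds also exceeded the 1.58 of Ramp2. No effect of the sample-name number, transcript length or GC content was simulated. Sequences and positions were read from GENCODE M21 and a RefSeq table, both on GRCm38.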

Additional observations from a re-analysis of the deposited data

How the results depend on the processing

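Gipr was called under all 19 alternatives, with an adjusted p of at most 0.0144 (edgeR or DESeq2). Ramp2 kept its direction in all 19 and lost its call in 7. Of the members, 1 rather than 2 was called when the test itself required a 25% difference (Ramp2 adjusted p = 0.177, edgeR), with the sample-name number as a covariate (0.0831) and with the libraries numbered 11 only (0.107), and leaving out single libraries gave between 1 and 2. The number of genes called over the whole table was 868, against 1618 with DESeq2, 1603 with the likelihood ratio test, 114 with the 25% difference in the test, 448 with the number as a covariate, 260 with the libraries numbered 11 only and 1603 with length and GC offsets. Leaving out single libraries gave between 237 (FA replicate 4) and 1168 (DE replicate 1), including 249, 433, 268 and 526 without FA replicate 2, FA replicate 3, DE replicate 3 and DE replicate 5. The members Vipr2, Pth1r and Calcrl changed sign without passing the test in any setting. With the number as a covariate, the log2 fold change was 0.070 for Vipr2, -0.12 for Pth1r and 0.13 for Calcrl. With the libraries numbered 11 only, it was 0.065, -0.12 and 0.13. Because all FA libraries carry 11, both settings draw the exposure difference from the libraries numbered 11. They are therefore not separate checks. With the offsets the log2 fold change was -0.032 for Pth1r and 0.092 for Calcrl. Leaving out single libraries gave -0.24 to 0.057 for Calcrl, with the positive values 0.034 when FA replicate 6 was dropped and 0.057 when DE replicate 5 was. With the number as a covariate Ramp1 and Ramp3 also dropped to 0.049 and 0.052. The cause of these changes was not tested. Gcgr ran from -0.69 (offsets) to -0.15 (without FA replicate 6), and Ramp3 reached 0.58 without DE replicate 1. Gcgr and Vipr2 did not pass the filter in every setting and had values in 14 and 18 of the 19. No paired analysis was possible because the labels link no FA library to a DE library. Depth limits Glp1r and Gcgr, for which 3 counts in a library correspond to between 0.0748 and 0.169 CPM.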
